A study of Mus musculus with 6 samples.

Results

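The osteoblast lineage genes described here are Runx2, Sp7, Dlx3, Dlx5, Alpl, Bglap, Ibsp, Spp1 and Dmp1. They are 9 of the 27179 genes in each of 2 comparison tables that the authors deposited, and they were taken by their symbols, with no measured value in the rule. The tables compare C2C12 cells, an immortalised mouse myoblast line, that stably carried an shRNA against BAF250A (2 libraries) or an shRNA against BRD9 (2 libraries) with C2C12 cells that stably carried a non-targeting scrambled shRNA (2 libraries). BAF250A, encoded by Arid1a, and BRD9 are subunits of different forms of the SWI/SNF chromatin remodelling complex, and the comparisons ask what each does for gene expression in differentiating myoblasts. All 6 libraries were made from total RNA of cells harvested 48 h after the switch from growth medium to a medium with horse serum and insulin, which makes C2C12 cells differentiate into muscle. The design text speaks of biological duplicates and the labels do not say whether each line was a pool or a clone, so the p-values below measure the spread between these libraries, which may be technical. Cells with an shRNA against BAF180 are named in the treatment protocol and were not analysed here.

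Osteoblasts, the cells that make bone, arise from mesenchymal progenitors, and bone morphogenetic proteins (BMPs) are known to divert C2C12 myoblasts from the muscle towards the osteoblast fate. In the osteoblast lineage the transcription factor RUNX2 acts first and SP7 (osterix) after it, while the homeodomain factors DLX3 and DLX5 are induced by BMP signals. These factors act on genes of the mineralising matrix: Alpl (tissue-nonspecific alkaline phosphatase, which removes the mineralisation inhibitor pyrophosphate), Bglap (osteocalcin, a late osteoblast protein that binds calcium), and Ibsp (bone sialoprotein), Spp1 (osteopontin) and Dmp1 (dentin matrix protein, typical of osteocytes), which are acidic phosphoproteins of 1 family (the SIBLING proteins). In the culture medium used here no BMP was added, per the labels' protocols.

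RUNX proteins bind the core TGTGGT, read as ACCACA on the other strand. This core was present before a listed start of 4 of the 6 members with an entry in the RefSeq promoter table (GRCm38.p6). These were Runx2 itself and 3 matrix genes, and the stretches around the core are printed here because they show the same letters in genes with different calls below. The capitals mark the core, each stretch is 40 bases long and is written 5′ to 3′ on the gene's strand.
Runx2 (chr17:44814685-44814724, minus strand): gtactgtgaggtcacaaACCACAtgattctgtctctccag
Bglap (chr3:88384576-88384615, minus strand): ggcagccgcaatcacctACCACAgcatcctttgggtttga
Spp1 (chr5:104434966-104435005, plus strand): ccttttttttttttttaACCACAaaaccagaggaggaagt
Dmp1, the second start (chr5:104202436-104202475, plus strand): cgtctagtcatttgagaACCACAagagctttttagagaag
The core began 80 bases before the listed start in Runx2, 132 bases in Bglap, 128 bases in Spp1 and 164 bases in Dmp1. The start listed for Runx2 lies inside the span given below for this gene, which reaches to chr17:44814797. Its core therefore lies within that span as well. In Runx2 it overlapped an E-box (CANNTG). Searched on both strands of the 250 bases before a start, TGTGGT was found at 14.05% of the 32851 starts in the table and at 4 of the 9 member starts. E-boxes were found at 9 of the 9 member starts and at 66.2% of all starts. TATAAA was found at 4 member starts and 12.4% of all starts, GGGCGG at 1 member start and 32.7% of all starts, and the homeodomain core TAATTA at 1 member start and 4.84% of all starts. A match is a description of the letters and not of binding. Sp7, Dlx3 and Dlx5 were not among the genes with an entry.

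Of the 9 members, 7 passed the authors' filter on low counts in each table, and Dlx5 and Ibsp did not. With BAF250A knockdown, 1 of the 7 tested members rose (Alpl) and 2 fell (Dlx3 and Bglap), where a call means an adjusted p under 0.05 in the authors' deposited table. With BRD9 knockdown 1 of 7 rose (Dmp1) and 1 fell (Bglap). Over all genes tested, 28.7% of 16450 passed with BAF250A knockdown (11.2% higher and 17.5% lower) and 14.4% of 17198 with BRD9 knockdown (5.11% higher and 9.33% lower), so the calls of 3 of 7 and 2 of 7 members are read against those shares. The median log2 fold change of the 7 tested members was 1.01 with BAF250A knockdown and -0.56 with BRD9 knockdown, against -0.18 and -0.15 over all genes tested. The members therefore did not move as a block: Alpl and Bglap, which both mark osteoblasts, moved in opposite directions with BAF250A knockdown. Both comparisons use the same 2 scrambled shRNA libraries, so their values stand side by side and are not independent.

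**Figure D1:**
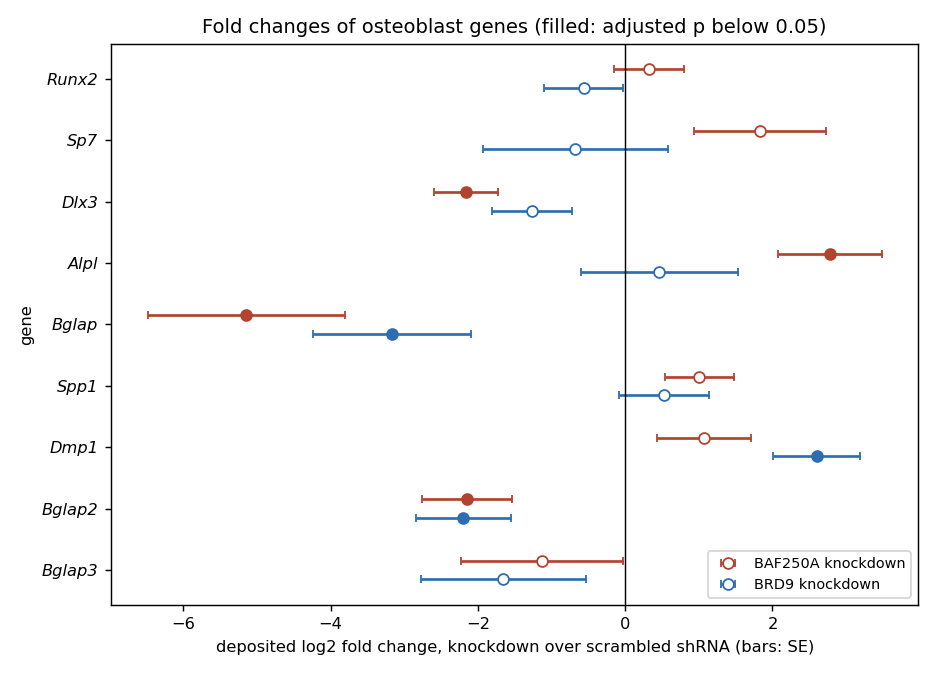
Deposited log2 fold change (horizontal axis) of 7 tested osteoblast genes and of the osteocalcin neighbours Bglap2 and Bglap3 (rows), with BAF250A knockdown in red above BRD9 knockdown in blue, each over scrambled shRNA. Bars are the deposited standard errors and filled points have an adjusted p below 0.05; Bglap lies at -5.15 and -3.17, Alpl at 2.78 and 0.46, and Dmp1 at 1.07 and 2.60.

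Values per library are given as normalized counts, which are the reads of a gene divided by the size factor of the library. They were recovered from the deposited means, which resolve into whole reads of each library, and the libraries of a group are called the first (larger size factor) and the second, since which of them carries which label is unknown. A single read is worth 1.25 and 1.29 normalized counts in the BAF250A knockdown libraries, 1.19 and 1.28 in the BRD9 knockdown libraries, and 0.635 and 0.914 in the scrambled libraries on the scale of the BAF250A table. The scrambled libraries have slightly different values on the scale of the BRD9 table, because size factors were set within each table. The targeted genes were lower in their own comparisons, Arid1a at -1.95 (SE 0.48, adjusted p = 0.000381) with BAF250A knockdown and Brd9 at -1.60 (SE 0.54, adjusted p = 0.0252) with BRD9 knockdown, in the authors' deposited tables. The direction of the fold changes was read from the libraries that both tables share, which are the scrambled ones, so both values check the labels.

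Runx2 (gene ID 12393, chr17:44495987-44814797, minus strand), the master transcription factor of the lineage, was expressed in every library and did not pass the test in either knockdown. It had 2371 and 2234 normalized counts in BAF250A knockdown cells, against 2438 and 1221 in scrambled cells. The scrambled libraries differ from each other more than the knockdown libraries do, and the knockdown values lie between them. The log2 fold change in the authors' deposited table was 0.32 (SE 0.48, adjusted p = 0.662). BRD9 knockdown cells had 1458 and 1102 normalized counts, against 2600 and 1251 in scrambled cells. The groups overlap again, and the log2 fold change was -0.56 (SE 0.53, adjusted p = 0.571) by the authors' deposited table. Its direction rests on a scrambled library in each case: without the second scrambled library the log2 fold change with BAF250A knockdown was -0.080, and without the first it was 0.031 with BRD9 knockdown. Runx2 overlaps Supt3 and 3 antisense genes on the other strand, with the strand setting of the counting not given in the sources used here. Supt3 stood at 0.93 (SE 0.49, adjusted p = 0.150) with BAF250A knockdown and 0.31 (SE 0.53, adjusted p = 0.787) with BRD9 knockdown in the authors' deposited tables.

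Sp7 (gene ID 170574, chr15:102356603-102367035, minus strand), the zinc finger factor that follows RUNX2, was low, at 0 to 27 reads per library. BAF250A knockdown cells had 27 and 20 reads, or 33.7 and 25.9 normalized counts, against 9 and 10 reads, or 5.71 and 9.14 normalized counts, in scrambled cells. Both knockdown libraries lie above both scrambled libraries, by 4.01-fold in the mean. The deposited log2 fold change was 1.82 (SE 0.90) and missed the threshold with an adjusted p of 0.114 in the authors' deposited table. BRD9 knockdown cells had 0 and 6 reads, or 0 and 7.67 normalized counts, against 6.09 and 9.36 normalized counts in scrambled cells. The groups overlap, and the authors' deposited table has a log2 fold change of -0.68 (SE 1.26, adjusted p = 0.805).

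Dlx3 (gene ID 13393, chr11:95120117-95125296, plus strand), a homeodomain factor that acts on osteocalcin and other matrix genes, fell with BAF250A knockdown. It had 534 and 634 normalized counts in BAF250A knockdown cells, against 2585 and 2807 in scrambled cells. The knockdown mean was 21.7% of the scrambled mean and the groups lie far apart. The log2 fold change in the authors' deposited table was -2.16 (SE 0.43, adjusted p = 5.65e-06), the smallest p of the members. BRD9 knockdown cells had 1584 and 671 normalized counts, against 2757 and 2875 in scrambled cells. Both knockdown libraries were below the scrambled ones, at 40.04% in the mean, but they differ from each other by more than the scrambled libraries do, and the log2 fold change of -1.26 (SE 0.54) in the authors' deposited table did not pass (adjusted p = 0.107). Without the first BRD9 knockdown library the log2 fold change was -1.94, and Dlx3 would pass there (p = 0.00289 in a refit of the authors' Wald test on the recovered reads). Without the second BRD9 knockdown library it was -0.78 (p = 0.231 in the same refit of the authors' test). Both knockdowns were thus below scrambled cells, while the higher BAF250A knockdown library (634) and the lower BRD9 knockdown library (671) lie within the few percent by which the scales of the tables differ, so these neighbours are not separated. The difference between the knockdowns was -0.90 (95% interval -2.25 to 0.45), with BAF250A knockdown lower, and did not pass the test given below.

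Dlx5 (gene ID 13395, chr6:6877801-6882068, minus strand), a homeodomain factor that BMPs induce upstream of Sp7, had 0 reads in the BAF250A knockdown libraries and 0 in the BRD9 knockdown libraries, against 0 and 2 reads in the scrambled libraries. All are under the floor of 3 reads that a count of 0 allows, so no fold change is given. Dlx6, its neighbour in the genome, had 0 reads in all 6 libraries. Dlx4, the neighbour of Dlx3 (chosen here after its values were seen, as was Dlx6), had 36.2 and 54.3 normalized counts in BAF250A knockdown cells, against 14.0 and 6.40 in scrambled cells, with a deposited log2 fold change of 1.97 (SE 0.81, adjusted p = 0.0521 in the authors' deposited table). Those libraries lie on the other side of the scrambled ones from Dlx3. In BRD9 knockdown cells Dlx4 had 9.51 and 5.11 normalized counts, against 14.9 and 6.55 in scrambled cells, and the groups overlap.

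**Figure D2:**
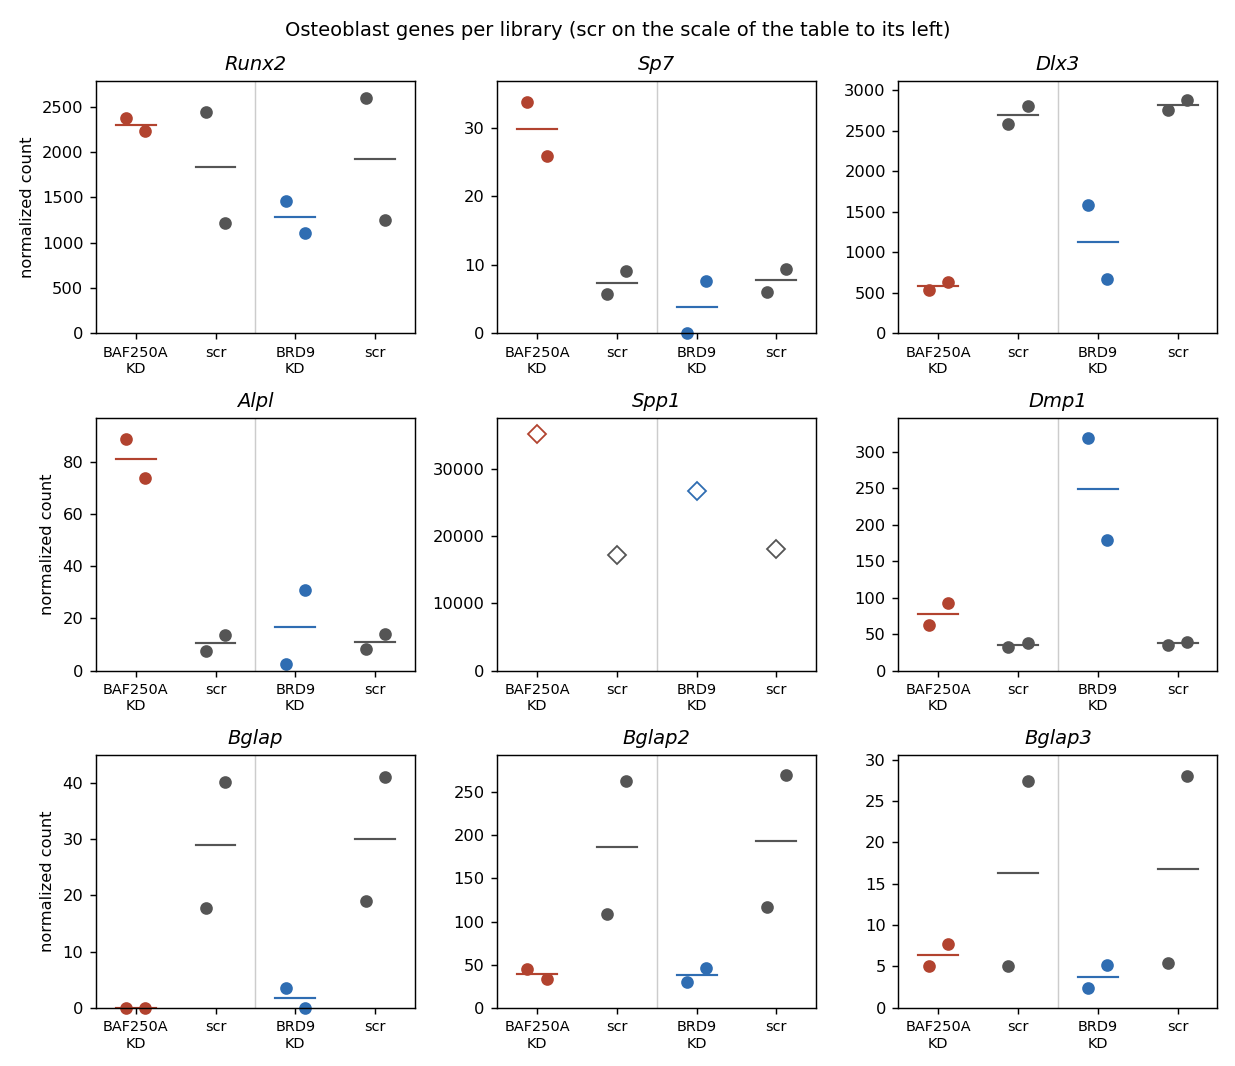
Normalized counts (vertical axis, starting at 0) of 7 members and the osteocalcin genes Bglap2 and Bglap3 in each library, and in each panel BAF250A knockdown left of scrambled shRNA (scr), then BRD9 knockdown left of the same scrambled libraries on the scale of its own table. Filled points are libraries, lines are group means, and open diamonds are group means of Spp1, whose libraries were not resolved; Bglap is at 0 in both BAF250A knockdown libraries and Dmp1 reaches 319 in BRD9 knockdown.

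Alpl (gene ID 11647, chr4:137741731-137796384, minus strand), the alkaline phosphatase whose activity is the usual early readout of osteoblast conversion in C2C12 cells, was low in scrambled cells and rose with BAF250A knockdown. BAF250A knockdown cells had 71 and 57 reads, or 88.6 and 73.7 normalized counts, against 12 and 15 reads, or 7.62 and 13.7 normalized counts, in scrambled cells. Both knockdown libraries exceed both scrambled ones several-fold, and the ratio of means was 7.61. The log2 fold change in the authors' deposited table was 2.78 (SE 0.70, adjusted p = 0.000609). In BRD9 knockdown cells the libraries had 2 and 24 reads, or 2.38 and 30.7 normalized counts, against 8.12 and 14.0 in scrambled cells. They lie on either side of the scrambled libraries, so no direction can be read, and the authors' deposited table has a log2 fold change of 0.46 (SE 1.07, adjusted p = 0.849). Without the second BRD9 knockdown library it was -1.47. The 250 bases before the first Alpl start hold no TGTGGT, and their capitals mark an E-box and, near the end, 2 overlapping matches of GGGCGG.
Alpl (chr4:137796385-137796634, minus strand): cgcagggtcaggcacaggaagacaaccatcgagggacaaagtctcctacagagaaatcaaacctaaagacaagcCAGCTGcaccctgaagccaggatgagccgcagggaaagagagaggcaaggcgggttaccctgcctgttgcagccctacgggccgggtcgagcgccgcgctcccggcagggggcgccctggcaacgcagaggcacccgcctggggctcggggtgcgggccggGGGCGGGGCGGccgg

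Bglap (gene ID 12096, chr3:88383495-88384466, minus strand), the osteocalcin gene, fell in both knockdowns. No read was found in either BAF250A knockdown library, against 28 and 44 reads, or 17.8 and 40.2 normalized counts, in the scrambled libraries. Set against a floor of 3 reads in each knockdown library, the mean was at least 7.61-fold lower with BAF250A knockdown. The log2 fold change in the authors' deposited table was -5.15 (SE 1.34, adjusted p = 0.000915), a value that depends on the fitted prior since one side is 0. It was -4.18 without the first BAF250A knockdown library, -4.21 without the second and -4.45 without the second scrambled library, and passed each time. BRD9 knockdown libraries held 3 and 0 reads, or 3.57 and 0 normalized counts, against 19.0 and 41.2 normalized counts in the scrambled libraries. The read rate was 6.53% of the scrambled one, with an exact 95% interval of 1.32% to 19.9% that covers counting error only. The deposited log2 fold change was -3.17 (SE 1.07, adjusted p = 0.0254 in the authors' deposited table). This call rests on few reads: it was -2.20 (p = 0.0582) without the second BRD9 knockdown library and -2.49 (p = 0.0347) without the second scrambled library, and neither reaches the largest p that the authors' adjustment passed (0.00722). The 250 bases before the Bglap start are printed here since this member alone was called in both comparisons, and their capitals mark the RUNX core, an E-box and, 27 bases before the start, TATAAA.
Bglap (chr3:88384467-88384716, minus strand): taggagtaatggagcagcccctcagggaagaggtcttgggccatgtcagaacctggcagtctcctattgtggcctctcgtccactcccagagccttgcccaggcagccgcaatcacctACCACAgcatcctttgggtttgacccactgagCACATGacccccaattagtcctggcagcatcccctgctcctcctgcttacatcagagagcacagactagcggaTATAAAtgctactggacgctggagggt

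The mouse genome holds 3 osteocalcin genes side by side, and 56.6% of the 50-base words of Bglap transcripts also occur in another gene, 51.3% in Bglap2, so reads can be split between them and each gene's own value is uncertain. Bglap2 (gene ID 12097, chr3:88377736-88378701, minus strand) had 44.9 and 33.6 normalized counts in BAF250A knockdown cells, against 109 and 263 in scrambled cells. It fell in the authors' deposited table, with a log2 fold change of -2.15 (SE 0.61, adjusted p = 0.00282). In BRD9 knockdown cells it had 29.7 and 46.0 normalized counts, against 116 and 270 in scrambled cells, and the authors' deposited table again has it lower, by a log2 fold change of -2.20 (SE 0.65, adjusted p = 0.00688). Bglap3 (gene ID 12095, chr3:88368616-88372741, minus strand, named here after its value was seen) passed in neither of the authors' deposited tables, at -1.13 (SE 1.10, adjusted p = 0.482) with BAF250A knockdown and -1.65 (SE 1.12, adjusted p = 0.385) with BRD9 knockdown. A sum over the 3 genes does not depend on how reads were split among them. It came to 40 and 32 reads, or 49.9 and 41.4 normalized counts, in BAF250A knockdown cells, against 208 and 362 reads, or 132 and 331 normalized counts, in scrambled cells. In BRD9 knockdown cells it came to 30 and 40 reads, or 35.7 and 51.1 normalized counts, against 141 and 339 normalized counts in scrambled cells. The summed knockdown means were 19.7% of the scrambled mean for BAF250A and 18.1% for BRD9, and in neither case do the libraries overlap.

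Among the SIBLING genes, which lie together on chromosome 5, Dmp1 (gene ID 13406, chr5:104197575-104214102, plus strand) rose with BRD9 knockdown. BRD9 knockdown cells had 268 and 140 reads, or 319 and 179 normalized counts, against 52 and 42 reads, or 35.2 and 39.3 normalized counts, in scrambled cells. The knockdown libraries stand well above the scrambled ones, with a ratio of means of 6.68 and a log2 fold change of 2.60 (SE 0.59, adjusted p = 0.000191) in the authors' deposited table. BAF250A knockdown cells had 62.4 and 93.1 normalized counts, against 33.0 and 38.4 in scrambled cells. These too lie above both scrambled libraries, by 2.18-fold in the mean, but the log2 fold change of 1.07 (SE 0.64) in the authors' deposited table did not pass (adjusted p = 0.204). The order of Dmp1 levels was BRD9 knockdown, BAF250A knockdown, scrambled, with no overlap between neighbours although each knockdown stands on the scale of its own table.

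Spp1 (gene ID 20750, chr5:104435111-104441053, plus strand), which encodes the secreted phosphoprotein osteopontin, was the most abundant member per exon length in every group, but its reads were too many to be resolved per library. The deposited mean and fold change imply group means of 35195 normalized counts in BAF250A knockdown cells, against 17235 in scrambled cells, and of 26740 in BRD9 knockdown cells, against 18129 in scrambled cells on that table's scale. Neither difference passed the test in the authors' deposited tables, at log2 fold changes of 1.01 (SE 0.47, adjusted p = 0.0924) with BAF250A knockdown and 0.53 (SE 0.61, adjusted p = 0.662) with BRD9 knockdown. Ibsp (gene ID 15891, chr5:104299287-104311472, plus strand), a marker of mature osteoblasts, had 0 reads in all 6 libraries, which allows up to 3 reads in each, or 3.74 and 3.88 normalized counts in BAF250A knockdown libraries, 3.57 and 3.83 in BRD9 knockdown libraries and 1.90 and 2.74 in scrambled libraries. Dspp, a SIBLING gene of teeth, also had 0 reads in all 6 libraries, and Mepe, a SIBLING gene of osteocytes, had 0 and 2 reads in the BAF250A knockdown libraries and 0 in the others (both chosen here after their values were seen). Dmp1 with BRD9 knockdown was thus the only call among these SIBLING genes.

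Divided by exon length, so that genes can be compared, the mean level of Spp1 was 21356 normalized counts per kb in BAF250A knockdown, 16226 in BRD9 knockdown and 10458 in scrambled cells. The transcription factors came next, Dlx3 at 224 normalized counts per kb in BAF250A knockdown, 432 in BRD9 knockdown and 1034 in scrambled cells, and Runx2 at 261 in BAF250A knockdown, 145 in BRD9 knockdown and 207 in scrambled cells. With BAF250A knockdown Runx2 stood above Dlx3 in this order, whereas Dlx3 stood above Runx2 in the other groups. Exon length here covers all annotated exons of a gene, 8837 bases for Runx2 and 2607 for Dlx3. The transcripts expressed may be shorter, so the order of genes depends on this choice. Of the matrix genes other than Spp1, Dmp1 had 28.1 normalized counts per kb in BAF250A knockdown, 90.0 in BRD9 knockdown and 12.9 in scrambled cells. Alpl had 20.1 in BAF250A knockdown, 4.10 in BRD9 knockdown and 2.64 in scrambled cells. Bglap had 0 in BAF250A knockdown, 2.89 in BRD9 knockdown and 46.9 in scrambled cells, and Sp7 had 8.77 in BAF250A knockdown, 1.13 in BRD9 knockdown and 2.19 in scrambled cells. Scrambled levels here are on the scale of the BAF250A table. By these means Bglap was above Dmp1, Alpl and Sp7 per exon length in scrambled cells and below Dmp1 in both knockdowns.

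**Figure D3:**
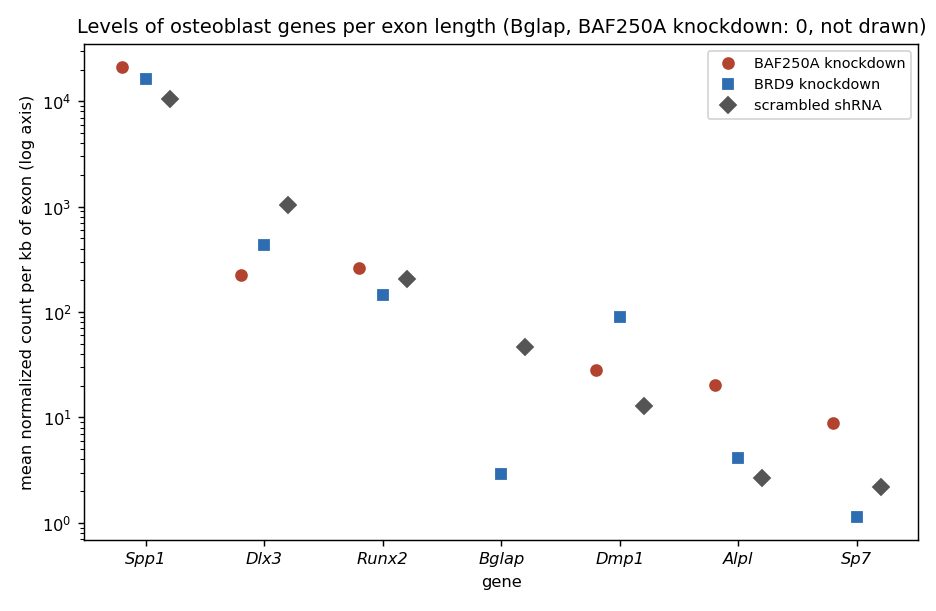
Mean normalized count per kb of exon (vertical log axis) of 7 members in BAF250A knockdown (circles), BRD9 knockdown (squares) and scrambled shRNA cells (diamonds, on the scale of the BAF250A table). Spp1 is highest at 21356, 16226 and 10458 per kb, and Bglap has 2.89 in BRD9 knockdown and 46.9 in scrambled cells, with its 0 in BAF250A knockdown not drawn.

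The difference between the knockdowns was tested for each gene as the BAF250A log2 fold change minus the BRD9 one, divided by the combined standard error, with a two-sided normal p adjusted over the 16311 genes tested in both tables. None of the 7 tested members passed, also at an unadjusted p below 0.05 (0 of 7), while 2.54% of all genes passed after adjustment and 8.35% had an unadjusted p below 0.05. The difference was 2.32 (95% interval -0.19 to 4.82, adjusted p = 0.709) for Alpl and 2.50 (-0.53 to 5.53, adjusted p = 0.861) for Sp7. For Dmp1 it was -1.52 (-3.23 to 0.18, adjusted p = 0.757) and for Bglap -1.98 (-5.35 to 1.39). For Runx2 the interval ran from -0.51 to 2.29 and for Spp1 from -1.03 to 1.98. These intervals are wide, so the calls of Alpl and Dlx3 with BAF250A knockdown alone and of Dmp1 with BRD9 knockdown alone are not shown to differ between the knockdowns, nor to be alike. The scrambled libraries shared by both tables cancel in the difference, which makes the test conservative.

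Other genes of the pathway give the setting, and their counts are read against the shares of all genes called. These were 28.7% with BAF250A knockdown (11.2% higher and 17.5% lower) and 14.4% with BRD9 knockdown (5.11% higher and 9.33% lower). Among BMP ligands 3 of 6 tested genes rose and 0 fell with BAF250A knockdown, against 0 of 6 with BRD9 knockdown, with median log2 fold changes of 2.00 and 0.12. Bmp4 stood at 3.84 (SE 0.46), Bmp6 at 3.37 (SE 0.78) and Bmp5 at 2.68 (SE 0.90) with BAF250A knockdown in the authors' deposited table. With BRD9 knockdown the authors' deposited table gives 0.002 (SE 0.58) for Bmp4, 1.91 (SE 0.97) for Bmp6 and 0.24 (SE 1.21) for Bmp5. Of 10 BMP receptors and SMADs, 2 rose with BAF250A knockdown and 0 with BRD9 knockdown in the authors' deposited tables (medians 0.80 and 0.47). The 2 were the receptor genes Acvr1 (1.15) and Bmpr1b (1.89). With BRD9 knockdown Acvr1 stood at 1.27 (adjusted p = 0.0562) and Bmpr1b at 1.88 (adjusted p = 0.0731) in the authors' deposited table. The difference between the knockdowns is not given here for genes of these lists. Of 11 tested BMP antagonists and inhibitory SMADs, 4 rose with BAF250A knockdown and 3 with BRD9 knockdown (medians 0.91 and 0.32), and 0 fell in either. Chrdl1, which encodes a secreted BMP antagonist, stood at 6.41 (SE 0.65) and 4.36 (SE 0.77), and Smad6, an inhibitory SMAD, at 3.61 (SE 0.45) and 1.80 (SE 0.58), with BAF250A and BRD9 knockdown in the authors' deposited tables. Ligands and inhibitors of the same pathway were thus called together with BAF250A knockdown. The list labelled BMP and DLX-MSX targets holds Id, Msx and Dlx genes and Hey1. Of its 10 tested genes, 4 rose and 1 fell with BAF250A knockdown, and 2 rose and 0 fell with BRD9 knockdown (medians 1.44 and 0.17). Its log2 fold changes with BAF250A knockdown ran from -2.68 to 2.81. In the authors' deposited tables the BMP target Id3 stood at 2.48 (SE 0.45) with BAF250A and 0.66 (SE 0.64) with BRD9 knockdown. Id2 stood at 2.81 (SE 0.52) and 2.03 (SE 0.61), and Hey1 at 0.19 (SE 0.52) and 2.60 (SE 0.57), in the same order. In the RUNX family and partner list 5 of 15 rose and 1 fell with BAF250A knockdown and 0 of 14 passed with BRD9 knockdown (medians 0.58 and 0.31). At an adjusted p below 0.01 the BAF250A count of this list was 0 higher and 1 lower, and that of the BMP receptors and SMADs was 0. The gene that fell was Zfp521, a zinc finger protein, with a log2 fold change of -2.59 (SE 0.67) in the authors' deposited table. Among the 5 that rose, Hdac4 stood at 1.41 (SE 0.48, adjusted p = 0.0148) in the authors' deposited table. Twist1 stood there at 4.20 (SE 1.44, adjusted p = 0.0163), with a mean of only 5.75 normalized counts. With BRD9 knockdown Zfp521 stood at -0.79 (SE 0.64, adjusted p = 0.487) and Hdac4 at 0.61 (SE 0.53, adjusted p = 0.532) in the authors' deposited table. Twist1 was not tested there. The medians over all genes tested were -0.18 with BAF250A and -0.15 with BRD9 knockdown.

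Matrix genes of the osteoblast, most of which fibroblasts also make, formed the list with the highest median in both knockdowns among the lists here. Of 14 tested, 11 rose and 0 fell with BAF250A knockdown (median 2.42), and 5 rose and 1 fell with BRD9 knockdown (median 1.06). Fmod, a collagen-binding proteoglycan, stood at 8.04 (SE 0.47) and 5.22 (SE 0.74), and Col1a1, a chain of type I collagen, at 4.58 (SE 0.41) and 2.60 (SE 0.48), with BAF250A and BRD9 knockdown in the authors' deposited tables. In the mineralisation list 4 of 10 rose and 1 fell with BAF250A knockdown, and 2 rose and 0 fell with BRD9 knockdown, with medians of -0.12 and -0.003. Enpp1, which makes the pyrophosphate that Alpl removes, stood at 5.22 (SE 0.45) with BAF250A and 3.41 (SE 0.52) with BRD9 knockdown, and Ank, which exports pyrophosphate or its source, reached 1.19 (SE 0.42) and 1.59 (SE 0.51) likewise in the authors' deposited tables. With BAF250A knockdown, the phosphatase gene and these opposing genes were therefore all called higher. Genes by which osteoblasts regulate osteoclasts had 3 of 5 higher and 1 lower with BAF250A knockdown, and 0 higher and 1 lower with BRD9 knockdown (medians 1.62 and -0.14). In the authors' deposited table Tnfrsf11b, the decoy receptor osteoprotegerin, stood at 5.91 (SE 0.62) with BAF250A knockdown, and Tnfsf11, the ligand that it traps, at 4.80 (SE 1.39). With BRD9 knockdown neither passed in the authors' deposited table. Tnfrsf11b stood there at 1.74 (SE 0.99, adjusted p = 0.279) and Tnfsf11 at 3.36 (SE 1.32, adjusted p = 0.0673). The mean of Tnfsf11 was only 8.23 normalized counts in the BAF250A comparison and 5.39 in the BRD9 comparison. Its fold changes therefore rest on few reads. WNT genes of bone had 2 of 9 higher with BAF250A knockdown and 0 of 9 with BRD9 knockdown (medians 0.79 and 0.38). The list counts here are read against the same shares of all genes called. These were 11.2% higher and 17.5% lower with BAF250A knockdown, and 5.11% higher and 9.33% lower with BRD9 knockdown. Of the osteocyte and SIBLING genes outside the members only Pdpn was tested, at 0.98 (SE 0.42, adjusted p = 0.0618) and 0.50 (SE 0.55, adjusted p = 0.640), and it passed in neither of the authors' deposited tables.

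**Figure D4:**
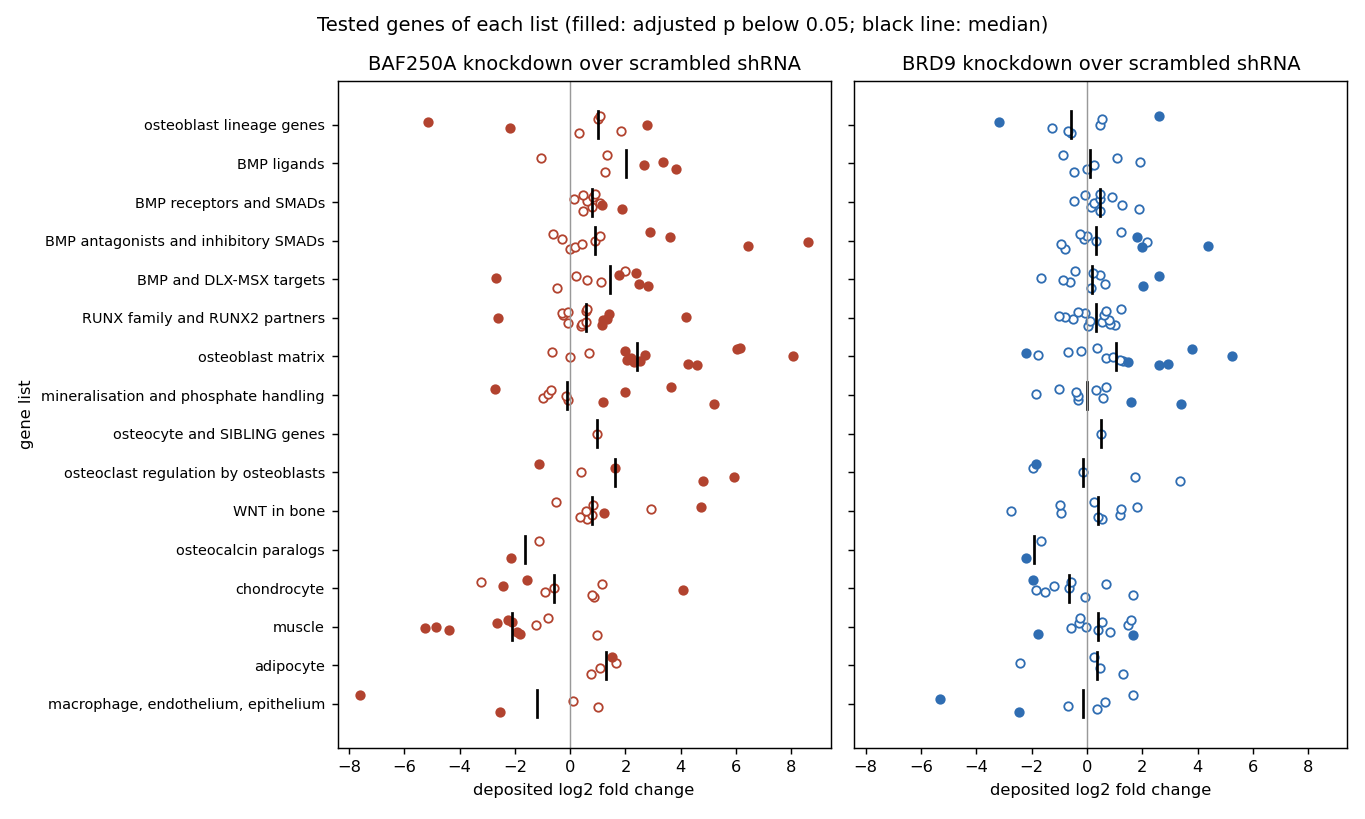
Deposited log2 fold change (horizontal axis, the same in both panels) of each tested gene in the osteoblast lineage genes (top row) and the context lists (rows below), with BAF250A knockdown in the left panel and BRD9 knockdown in the right, each over scrambled shRNA. Filled points have an adjusted p below 0.05 and black lines are medians; the osteoblast matrix median is 2.42 and 1.06, and the median of the members is 1.01 and -0.56.

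Markers of other lineages are given for the same libraries, and their counts are read against the 28.7% of all genes called with BAF250A knockdown and the 14.4% called with BRD9 knockdown. In bulk RNA, fewer cells of a type and less RNA per cell cannot be told apart. All 11 muscle markers were above 0 in both tables, and their summed level was 170346 normalized counts in BAF250A knockdown cells, against 625637 in scrambled cells, and 631057 in BRD9 knockdown cells, against 651740 in scrambled cells. With BAF250A knockdown 8 of 11 muscle genes fell (median -2.11), and the authors' deposited table gives -4.38 (SE 0.44) for Myh3, an embryonic myosin. With BRD9 knockdown 1 rose and 1 fell (median 0.41), and the authors' deposited table gives 0.41 (SE 0.51) for Myh3. The 1 that rose was Myod1, at 1.67 (SE 0.53, adjusted p = 0.0142) in the authors' deposited table. The 1 that fell was Myf5, at -1.78 (SE 0.62, adjusted p = 0.0304) there. With BAF250A knockdown the authors' deposited table gives 0.97 (SE 0.47, adjusted p = 0.106) for Myod1 and -1.83 (SE 0.56, adjusted p = 0.00588) for Myf5. The osteoblast members and muscle genes were measured in the same lysates, and the part of the muscle change in the members' values was not tested. Of 11 chondrocyte markers 10 were above 0 and Col9a1 was at 0, with summed levels of 340 normalized counts in BAF250A knockdown cells, against 347 in scrambled cells, and 213 in BRD9 knockdown cells, against 359 in scrambled cells; 1 rose and 2 fell of 9 tested with BAF250A knockdown and 0 rose and 1 fell with BRD9 knockdown (medians -0.57 and -0.66). Of 6 adipocyte markers 5 were above 0 and Adipoq was at 0, with summed levels of 2387 normalized counts in BAF250A knockdown cells, against 1013 in scrambled cells, and 1435 in BRD9 knockdown cells, against 1046 in scrambled cells. Of 4 tested adipocyte genes 1 rose with BAF250A knockdown and 0 with BRD9 knockdown (medians 1.29 and 0.35). The 9 markers of macrophages, endothelium and epithelium summed to 71.7 normalized counts in BAF250A knockdown cells, against 367 in scrambled cells, and to 85.2 in BRD9 knockdown cells, against 384 in scrambled cells, with 2 of 4 and 2 of 6 tested genes lower (Kdr and Cd68) and medians of -1.21 and -0.16. Kdr and Cd68 made up most of both scrambled sums, with means of 89.6 and 92.1 normalized counts over the libraries of the BAF250A comparison. These sums therefore describe mainly 2 genes and not the 9 markers alike. The part of these markers in the members' values was not tested either.

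Among the 122 genes of the context lists, those whose pair of log2 fold changes lay nearest to a called member were Bmp5 (distance 0.245) and Id3 (0.354) for Alpl, Col11a2 (0.274) and Pthlh (0.611) for Dlx3, and Hey1 (0.879) and Myod1 (0.934) for Dmp1. Bglap had no close neighbour, with Ckm at 2.59 and Cd68 at 2.71. The distance is Euclidean, on the log2 scale, over 2 values that share their scrambled libraries, and it describes likeness of pattern alone.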

How the data were processed

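RNA was sequenced from C2C12 cells with an shRNA against BAF250A, an shRNA against BRD9 or a scrambled shRNA, 2 libraries each. The build mm10 and the tools RSEM, Bowtie, HISAT, StringTie and DESeq2 appear in the submitters' processing notes, without versions or roles. The authors deposited, per the file headers, for each gene a mean normalized count (a signal over 4 libraries), a log2 fold change with its standard error, a Wald score, a p-value and an adjusted p-value. These Wald tests, which the authors made in the layout of DESeq2, were used as deposited, with an adjusted p below 0.05. A recalculation of the Benjamini-Hochberg adjustment came within a relative difference of 0.0071 of the deposited values.

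Each deposited mean adds up the whole reads of 4 libraries, each weighted by a constant of its library, so reads were recovered by solving both tables together. Every gene with a mean above 0 and below 20 had 1 solution (7166 of 7166 with BAF250A and 7041 of 7041 with BRD9), and the control reads agreed between tables in 6653 of 6653 genes. If RSEM made them, these reads are rounded estimates. Size factors were 0.801 and 0.773 for BAF250A knockdown against 1.58 and 1.09 for scrambled, and 0.841 and 0.782 for BRD9 knockdown against 1.48 and 1.07 for scrambled on that table's scale. Libraries are not tied to the labels A and B, and total counts were not analysed here. Higher members (Runx2, Dlx3) also needed the fold changes, and Spp1 was not resolved. The recovery was tested on simulated data. Duplicates differed beyond sampling noise (mean chi-square per gene, 1 degree of freedom, of 2.73, 4.63 and 4.30 in BAF250A knockdown, BRD9 knockdown and scrambled cells). The deposited fold changes are shrunken by a normal prior: they are a median 91.1% of the log2 ratio of means with BAF250A and 86.7% with BRD9.

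The members, lists and tests were chosen with earlier results of these data known. The text names all members, and from the context lists genes among the 3 called with the smallest adjusted p per list and comparison, or the most abundant gene where none was called. Gene coordinates and upstream sequences are from RefSeq, and strands of genes and exon lengths from GENCODE on GRCm38 (mm10). Implied group means of Spp1 are those at which a fit with the prior gives the deposited fold change and standard error. They assume reads split evenly within a group. Marker sums assume that the fold change is a ratio of means. Computations used Python 3.11.15, numpy 2.4.6, pandas 2.3.3 and scipy 1.17.1. The interval of the Bglap read rate and the floors for 0 reads cover counting error only, while the intervals of differences between knockdowns come from the deposited standard errors.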

Additional observations from a re-analysis of the deposited data

How the results depend on the processing

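The number of members called with BAF250A knockdown was 3 in the authors' deposited table, and it was 1 (Dlx3) with Bonferroni adjustment. It stayed at 3 (Dlx3, Alpl and Bglap) at an adjusted p below 0.01, without the low-count filter, with a mean of 10 or more, with centred fold changes, among protein-coding genes, and without each library in turn (3 to 3). With BRD9 knockdown it was 2, but 1 (Dmp1) at an adjusted p below 0.01, 0 with Bonferroni adjustment, and 1 to 3 without each library in turn: 1 without the second BRD9 knockdown library, 1 without the second scrambled library, and 3 without the first BRD9 knockdown library, which added Dlx3. The leave-out fits were chosen after seeing the data, use the dispersion of all 4 libraries, and assume that a lone library varies like the others. Spp1 was not refitted, because its reads were not resolved per library, so the leave-out counts cover the other tested members only. The count that differed between the knockdowns was 0 under each alternative run. Signs reversed for Runx2 with BAF250A knockdown without the second scrambled library (-0.080; -0.080 to 0.88 over the libraries left out), for Runx2 with BRD9 knockdown without the first scrambled library (0.031; -0.96 to 0.031), and for Alpl with BRD9 knockdown without the second BRD9 knockdown library (-1.47; -1.47 to 1.09), none of which was a call. Of the other member values under these alternatives, 120 kept their side of the threshold, 7 lost a call and 1 gained one. No paired analysis was possible because the recovered libraries could not be tied to the replicate letters. A second count model with other normalization was not run, since reads were recovered for low genes and members and not for all genes. Counts in the context lists also moved: with BAF250A knockdown, Bonferroni adjustment left 1 BMP ligand, 0 BMP receptors and SMADs, 0 RUNX family and partner genes, 9 osteoblast matrix genes, all higher, and 4 muscle genes, all lower. With BRD9 knockdown it left 1 BMP antagonist and 4 osteoblast matrix genes, all higher, and 0 muscle genes. A library with 0 reads of a gene does not exclude up to 3 reads.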
